A study of Mus musculus with 4 samples.

Results

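The Notch ligands Dll1, Dll4, Jag1, Jag2 and Dll3 and the ubiquitin ligases Mib1 and Mib2, which act on those ligands, were described in sorted cells of the mouse colonic crypt. The 7 genes were taken by symbol, and all 7 were found among the 14519 entries of the authors' table. The groups were Reg4+ DCS cells, the deep crypt secretory cells of the colon, sorted as Reg4-dsRed+ cells, and Lgr5+ stem cells, sorted as Lgr5-GFP+ cells, both from colonic epithelium. Each group had 2 libraries, which the design text describes as biological replicates from separate rounds of sorting and library preparation. Age, sex, strain and number of mice were not stated in the labels, and each group rests on 1 fluorescent reporter. RNA was read by CEL-seq, which counts the 3′ ends of transcripts, and values are RPM, the reads of a gene scaled so that each library sums to 1000000.

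Notch signalling passes between touching cells. A ligand in the membrane of a sending cell binds a Notch receptor on its neighbour, and Mib ligases attach ubiquitin to the ligand's tail inside the sending cell so that the ligand is taken up by endocytosis. This uptake pulls on the bound receptor, which is then cleaved, and its inner part goes to the nucleus and switches on Hes genes. In the intestine, secretory cells carry Dll1 and Dll4, and Notch activity in stem cells and progenitors holds back secretory fate, which Atoh1 drives. The series describes DCS cells as neighbours of Lgr5+ stem cells, so the comparison asks which ligands, and which enzymes that act on ligands, the sending cells express.

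The windows upstream of the starts of Dll4 and Dll1 are shown because these ligands were the members called higher in Reg4+ DCS cells. Sequences are from RefSeq promoters of build GRCm38.p6, the assembly that mm10 stands for, and run 5′ to 3′ on the strand of the gene. Of the 250 bases upstream of each RefSeq start, bases in an annotated exon of the gene itself were left out of the print. The search for motifs took in those bases. In the Dll4 window, chr2:119325534-119325783 on the plus strand, capitals mark the 31 bases that lie in exons of Gm14207, a noncoding gene on the opposite strand. Dll1 has 2 RefSeq starts. The printed part of the window of the inner start is chr17:15375977-15376073. The window of the outer start is chr17:15376933-15377182, and both are on the minus strand. Capitals there mark CAGCTG, an E-box of the kind bound by basic helix-loop-helix factors such as Atoh1.
Dll4: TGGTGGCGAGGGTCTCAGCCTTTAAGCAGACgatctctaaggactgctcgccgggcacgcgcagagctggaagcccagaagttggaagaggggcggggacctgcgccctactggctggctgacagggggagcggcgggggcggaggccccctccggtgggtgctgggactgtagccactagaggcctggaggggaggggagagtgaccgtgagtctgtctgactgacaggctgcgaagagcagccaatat
Dll1, inner start: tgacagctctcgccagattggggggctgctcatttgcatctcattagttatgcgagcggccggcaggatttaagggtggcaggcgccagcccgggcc
Dll1, outer start: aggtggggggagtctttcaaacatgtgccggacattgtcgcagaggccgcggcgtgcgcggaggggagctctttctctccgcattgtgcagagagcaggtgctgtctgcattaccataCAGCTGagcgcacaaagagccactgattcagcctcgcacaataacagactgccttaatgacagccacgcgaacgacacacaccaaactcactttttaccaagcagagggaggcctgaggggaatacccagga

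CAGCTG, which reads the same on both strands, begins 132 bases upstream of the outer Dll1 start and was in neither the Dll4 window nor that of the inner Dll1 start. Among the other members searched it also begins 82 bases upstream of the start of Jag1, which had the opposite order between the groups, and 7 bases upstream of that of Dll3, and was in no window of Jag2 or Mib2. Every base of the Dll3 and Jag2 windows lies in an annotated exon of the gene itself. It was in 13.0% of 32851 RefSeq windows of 250 bases. The related E-box CAGATG (14.4% of windows, either strand) and TGGGAA, the core of the site of the Notch partner RBPJ (21.6%, either strand), were in no window of these 6 genes. Atoh1 itself stood at 250.7 and 328 RPM in Reg4+ DCS and at 15.2 and 17.1 RPM in Lgr5+ cells. These matches are letters in a window and say nothing about binding.

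Libraries were checked once against their labels. Recovered depths lay between 5205723 and 7955340 reads per library, and the values of a Reg4+ DCS column could be split into 2 parts that had been scaled apart and averaged, parts whose nature the labels do not state. The reporter genes followed the sort: Reg4 stood at 6187 and 5899 RPM in Reg4+ DCS cells against 796 and 363 RPM, and Lgr5 at 0.989 and 3.13 against 46.5 and 48.8 RPM. The epithelial marker list summed to between 7348 and 10321 RPM in every library. Of 9 goblet-type markers, 9 were called higher in Reg4+ DCS cells. Comparisons set 2 libraries against 2, for which an exact two-sided permutation test cannot go below p = 0.333, so that tests rest on limma, fitted across 10183 genes. Fewer cells of a type and less RNA per cell cannot be told apart in such bulk libraries.

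Of the 7 genes, 5 passed the filter of at least 5 RPM in at least 2 libraries: Dll1, Dll4, Jag1, Mib1 and Mib2. Mib1 passed through the Lgr5+ libraries alone, while the other 4 were above 5 RPM in every library. The ligands Dll1 and Dll4 were called higher in Reg4+ DCS cells and the ligase Mib1 was called higher in Lgr5+ cells at an adjusted p under 0.05, while Jag1 and Mib2 did not pass. Over all tested genes 34.1% were called, 7.18% as higher in Reg4+ DCS cells and 26.9% as higher in Lgr5+ cells. The groups did not overlap for any of the 5 tested genes, a state shared by 72.3% of all tested genes. It was 16.1% with Reg4+ DCS above and 56.2% with Lgr5+ above.

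**Figure D1:**
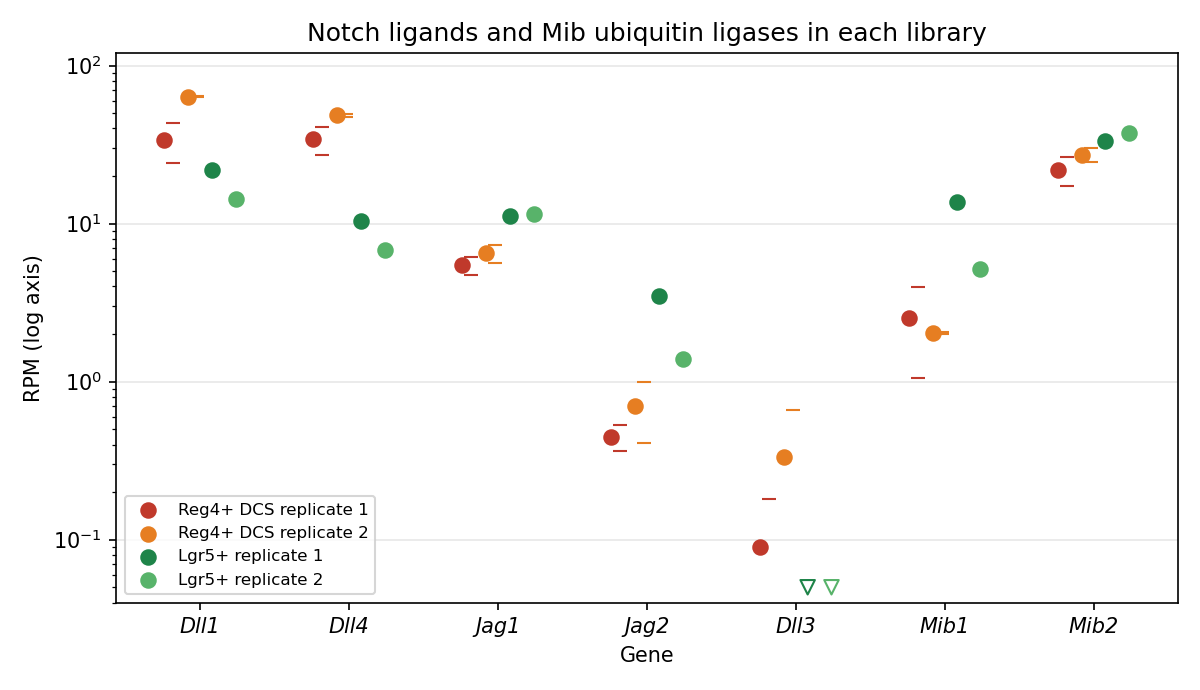
RPM of each gene in each of the 4 libraries, on a log axis; filled circles are the deposited values, short bars the 2 parts recovered from each Reg4+ DCS column, and open triangles mark values of 0, drawn at the bottom. Dll1 and Dll4 lie higher in both Reg4+ DCS libraries, from 33.7 to 63.5 RPM, than in the Lgr5+ libraries, from 6.79 to 21.9 RPM, and Jag1, Jag2, Mib1 and Mib2 lie lower there.

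Dll4 is a Delta-type ligand also known for its role in vessel sprouting (mm10 chromosome 2, 119325784 to 119335962, plus strand, protein coding). Its level was 34.0 RPM in Reg4+ DCS replicate 1, 48.4 RPM in replicate 2, 10.4 RPM in Lgr5+ replicate 1 and 6.79 RPM in replicate 2. Every Reg4+ DCS value was thus above every Lgr5+ value. These values rested on 278 and 264 reads against 54 and 54 reads. The group means were 41.2 ± 10.1 and 8.58 ± 2.54 RPM (mean ± SD, n = 2 per group, as for all such pairs), and the ratio of means was 4.80, between 3.97 and 6.07 without any 1 library. On the log2(RPM + 1) scale the difference, Reg4+ DCS minus Lgr5+, was 2.14 (SE 0.33, 95% interval 1.39 to 2.89, limma adjusted p = 0.00244).

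Dll1, the other Delta-type ligand of intestinal secretory cells (chromosome 17, 15367354 to 15376872, minus strand, protein coding), measured 33.7 and 63.5 RPM in Reg4+ DCS cells and 21.9 and 14.2 RPM in Lgr5+ cells. The Reg4+ DCS libraries were the higher ones, but replicate 2 had nearly double the level of replicate 1, so that the spread was wide. There were 284 and 346 reads against 114 and 113 reads. Means were 48.6 ± 21.1 and 18.1 ± 5.44 RPM, 2.69-fold apart (1.87 to 3.52 without any 1 library). The log2 difference was 1.34 (SE 0.37, 95% interval 0.50 to 2.19, limma adjusted p = 0.0254). Without Reg4+ DCS replicate 2 it was 0.90 and was not called (adjusted p = 0.121), nor was it called with no filter on low values (0.0556).

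The parts inside the Reg4+ DCS columns gave the same order. Scaled to its own total, Dll4 ranged from 27.0 to 49.3 RPM over the 4 parts, and Dll1 from 24.3 to 63.8 RPM, so that all 4 parts lay above both Lgr5+ libraries for each gene. For Jag1, Jag2, Mib1 and Mib2 all 4 parts lay below both Lgr5+ libraries. The share of all tested genes with parts apart was not counted, while 72.3% were apart by library. The parts are not replicates of a condition. In Reg4+ DCS replicate 1, Dll1 was at 43.1 RPM in the larger part and at 24.3 RPM in the smaller, with 95% Poisson intervals of 37.8 to 48.9 and 17.8 to 32.4 RPM, which cover counting error only. In replicate 2 its parts were alike, at 63.2 and 63.8 RPM.

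Jag1, a Serrate-type ligand (chromosome 2, 137081456 to 137116644, minus strand, protein coding), had the opposite order, at 5.46 and 6.51 RPM in Reg4+ DCS cells and 11.1 and 11.6 RPM in Lgr5+ cells. Its replicates were close together in each group and the groups did not overlap. Means were 5.98 ± 0.745 and 11.4 ± 0.299 RPM, from 43 and 35 reads against 58 and 92 reads. The ratio of means was 1.90 toward Lgr5+ cells, yet the log2 difference of −0.83 (SE 0.31, 95% interval −1.54 to −0.12) missed the threshold by limma (adjusted p = 0.0694). Without the mean-variance trend limma called it (adjusted p = 0.0445).

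Jag2, the second Serrate-type ligand (chromosome 12, 112907819 to 112929776, minus strand), was low throughout, at 0.445 and 0.704 RPM in Reg4+ DCS cells and 3.46 and 1.38 RPM in Lgr5+ cells. Only 3 and 4 reads stood behind the Reg4+ DCS values, against 18 and 11 reads, and the gene lay below the filter and was not tested. With a lower filter of 1 RPM in 2 libraries its log2 difference was −1.05 and was not called (limma adjusted p = 0.0655).

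Dll3, a divergent Delta-type protein known to stay largely inside the cell rather than to activate Notch on neighbours (chromosome 7, 28293553 to 28302238, minus strand), was scarcely seen. Reg4+ DCS cells had 1 and 2 reads (0.0905 and 0.333 RPM), and it was listed at 0 in both Lgr5+ libraries. A count of 0 there allows up to 0.576 and 0.377 RPM, taking 3 reads as the limit. No difference was detectable at this depth.

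Within a library, the ligands can be set beside each other. CEL-seq reads 1 end per transcript, so RPM of different genes can be set beside each other without a correction for length, apart from how well each 3′ end is captured. The 5 ligands summed to 73.7 and 119 RPM in Reg4+ DCS and to 46.9 and 33.9 RPM in Lgr5+ libraries. Dll1 and Dll4 together made up 91.9% and 93.7% of the sum in Reg4+ DCS cells and 68.9% and 61.9% in Lgr5+ cells. Jag1 made up 7.40% and 5.45% against 23.8% and 34.1%. The ratio of Dll4 to Jag1 was 6.24 and 7.43 in Reg4+ DCS cells and 0.931 and 0.587 in Lgr5+ cells. Dll4 was thus the more abundant of the pair in each Reg4+ DCS library and Jag1 in Lgr5+ replicate 2. In Lgr5+ replicate 1 their order was not settled, on 54 reads of Dll4 and 58 of Jag1. The 95% Poisson intervals were 7.79 to 13.5 RPM for Dll4 and 8.46 to 14.4 RPM for Jag1 in that library. Ratios in a Reg4+ DCS column depend on how its 2 parts were weighted. With the reads of both parts pooled, Dll1 and Dll4 made up 92.3% and 93.7% of the ligand reads and the ratio of Dll4 to Jag1 was 6.47 and 7.54.

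**Figure D2:**
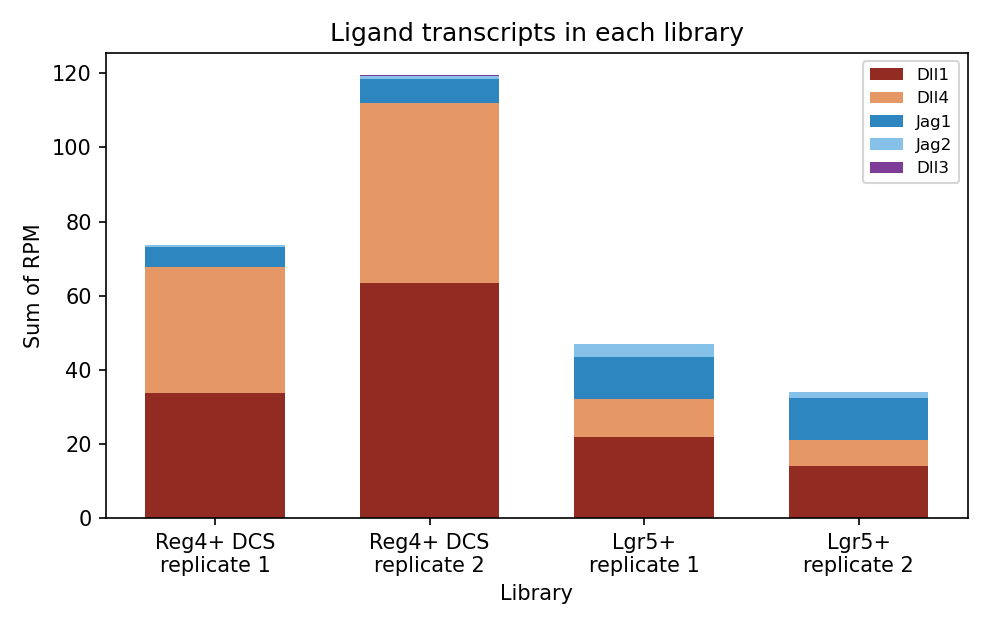
Summed RPM of the 5 Notch ligands in each library, as stacked bars from 0, 1 bar per library and 1 colour per ligand. The Delta-type ligands Dll1 and Dll4 fill 91.9% to 93.7% of the bars of Reg4+ DCS cells and 61.9% to 68.9% of those of Lgr5+ cells, where Jag1 takes 23.8% to 34.1%.

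The balance of the Delta-type pair also differed. The ratio of Dll4 to Dll1 was 1.01 and 0.761 in Reg4+ DCS and 0.474 and 0.478 in Lgr5+ libraries. With pooled reads it was 0.979 and 0.763 in Reg4+ DCS libraries, which turned the order of the pair in replicate 1. In Reg4+ DCS cells the ranges of Dll1 and Dll4 overlapped as well, so their order there is not settled, while in Lgr5+ cells Dll1 was above Dll4 in each library. Whether the fold change of Dll4 differs from that of Dll1 was not tested.

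Mib2, an E3 ubiquitin ligase of the Mind bomb family (chromosome 4, 155654677 to 155669198, minus strand, protein coding), was the more abundant ligase in every library. It stood at 21.8 and 27.3 RPM in Reg4+ DCS cells and 33.4 and 37.3 RPM in Lgr5+ cells, on 145 and 150 reads against 174 and 297 reads. The Lgr5+ values were higher with no overlap, though by little. Means were 24.5 ± 3.84 and 35.4 ± 2.76 RPM. The log2 difference of −0.52 (SE 0.26, 95% interval −1.13 to 0.09) was not called (limma adjusted p = 0.159) and was close to the median of all tested genes, −0.47.

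Mib1, the ligase best known as required in sending cells for ligand activity (chromosome 18, 10725548 to 10818704, plus strand, protein coding), was at 2.52 and 2.02 RPM in Reg4+ DCS cells and at 13.6 and 5.15 RPM in Lgr5+ cells. The groups did not overlap, but the Lgr5+ libraries were far apart. Read counts were low, at 24 and 11 against 71 and 41. Means were 2.27 ± 0.353 and 9.40 ± 6.00 RPM, a ratio of 4.14 toward Lgr5+ cells that ranged from 2.27 without Lgr5+ replicate 1 to 6.01 without Lgr5+ replicate 2. The log2 difference was −1.54 (SE 0.45, 95% interval −2.58 to −0.50, limma adjusted p = 0.0323). The call was lost without either Reg4+ DCS library (0.118 without replicate 1, 0.116 without replicate 2), with median-of-ratios scaling (0.0894), with no filter (0.0698) and by edgeR (0.120), and without either Lgr5+ library the gene missed the filter.

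The pair of ligases summed to 24.3 and 29.3 RPM in Reg4+ DCS cells and to 47.1 and 42.5 RPM in Lgr5+ cells. Mib2 held 89.6% and 93.1% of that sum in Reg4+ DCS and 71.0% and 87.9% in Lgr5+ cells. With pooled reads the Reg4+ DCS shares were 85.8% and 93.2%, which overlapped those of Lgr5+ cells. Set against the ligands, Dll4 was at 1.56 and 1.77 times the level of Mib2 in Reg4+ DCS cells and at 0.310 and 0.182 times in Lgr5+ cells (1.92 and 1.76 in Reg4+ DCS cells with pooled reads). For Jag1 the same ratio was 0.250 and 0.239 (0.297 and 0.233 with pooled reads) against 0.333 and 0.310.

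The scale of the libraries bears on the size of each difference. With RPM as deposited, all tested genes had a median log2 difference of −0.47, which median-of-ratios scaling moved to 0.02. Under that scaling the log2 difference was 2.62 for Dll4 (limma adjusted p = 0.000423) and 1.83 for Dll1 (0.00327). It was −0.37 for Jag1 (0.359), −1.13 for Mib1 (0.0894) and −0.02 for Mib2 (0.949). No sign flipped, though Mib2 then showed next to no difference, and 28.4% of tested genes were then called, 15.6% as higher in Reg4+ DCS cells and 12.7% as higher in Lgr5+ cells. By edgeR on the recovered reads, which called 27.1% of tested genes (13.7% toward Reg4+ DCS and 13.4% toward Lgr5+ cells), Dll4 was at 2.77 and Dll1 at 1.93, both called, and Jag1 (−0.46), Mib1 (−1.32) and Mib2 (−0.17) were not. Ranks by pooled reads, which scaling a whole library does not change, placed Dll4 at 3357 and 3065 of 14519 in Reg4+ DCS and at 8806 and 9416 in Lgr5+ libraries, with 1 as the most abundant entry. Dll1 lay at 3309 and 2386 in Reg4+ DCS and at 6594 and 7661 in Lgr5+ libraries. Mib2 lay at 5420 and 4786 in Reg4+ DCS and 5003 and 4412 in Lgr5+ libraries, so its ranks overlapped. By the deposited values, Reg4+ DCS ranks were 3571 and 3077 for Dll4, 3595 and 2389 for Dll1, and 4913 and 4847 for Mib2.

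**Figure D3:**
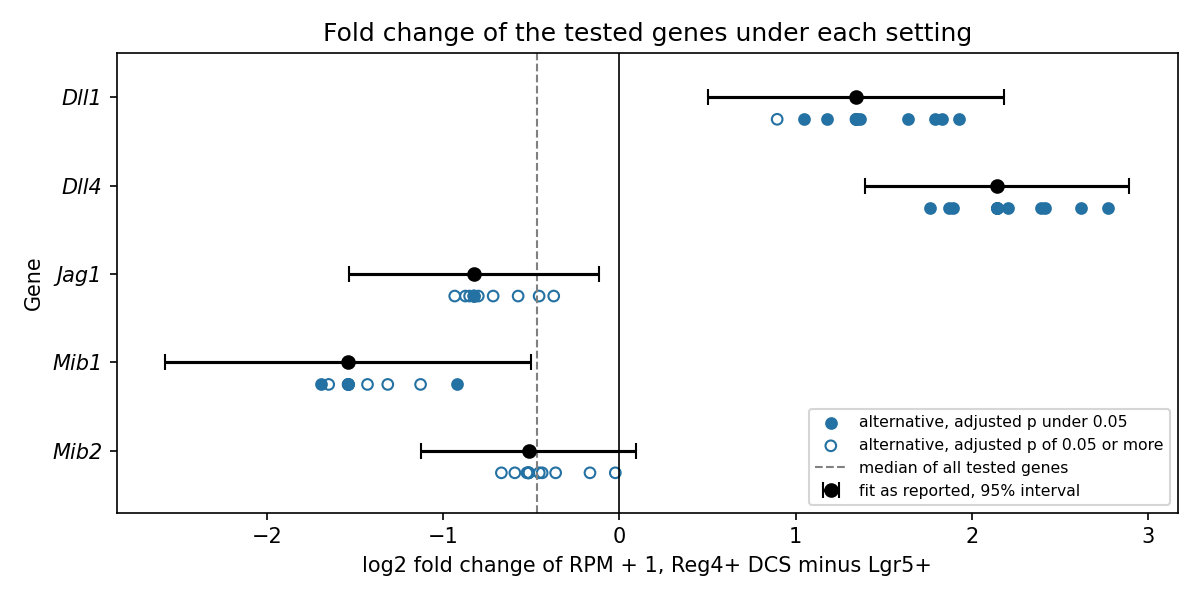
Log2 difference of RPM + 1, Reg4+ DCS minus Lgr5+, for the 5 tested genes; black circles with bars are the limma estimates with 95% intervals, blue circles the alternatives, filled where the adjusted p was under 0.05, and the dashed line the median of all tested genes at −0.47. Dll4 was called in 12 of 12 alternatives and Dll1 in 10 of 12, Mib1 in 5 of 10, Jag1 in 1 of 12 and Mib2 in 0 of 12.

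Ordered by level in Reg4+ DCS cells, the 7 genes ran Dll1, Dll4, Mib2, Jag1, Mib1, Jag2 and Dll3. Dll1 and Dll4 overlapped there, as 33.7 to 63.5 and 34.0 to 48.4 RPM, and the other neighbours in that order were apart, Jag2 and Dll3 on at most 4 reads a library. In Lgr5+ cells the order of means was Mib2, Dll1, Jag1, Mib1, Dll4, Jag2 and Dll3. There the range of Mib1, 5.15 to 13.6 RPM, overlapped those of Jag1 and Dll4.

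The gene nearest to Dll4 moved with it. Gm14207 (mm10 chromosome 2, 119321187 to 119326194, minus strand, annotated as a processed transcript) runs away from Dll4 on the other strand, and 2 of its 3 annotated transcripts begin 220 and 241 bases upstream of the Dll4 start, in the window printed above. It was singled out after its values were seen, from the 4 genes in the table that lie within 5 kb of a member. Gm14207 stood at 27.7 and 37.6 RPM in Reg4+ DCS cells and at 4.03 and 4.90 RPM in Lgr5+ cells. Means were 32.6 ± 7.04 and 4.47 ± 0.614 RPM, 7.31-fold apart, and the log2 difference was 2.61 (SE 0.31, limma adjusted p = 0.000917). It passed the filter through the Reg4+ DCS libraries alone. The third annotated transcript overlaps the start of Dll4 by 411 bases, and no label states whether the counting used strand. The annotated 3′ ends, where CEL-seq reads fall, lie 14775 bases apart. Of the other 3 neighbours, Timm50, next to Dll3, was called higher in Lgr5+ cells (log2 difference −1.12, adjusted p = 0.0126), while Nudt14, next to Jag2, and Cdk11b, next to Mib2, were not called.

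The wider pathway was described through 9 lists of other genes. Of 73 symbols listed, 63 were found and 49 tested, of which 1 was called higher in Reg4+ DCS cells, 11 were called higher in Lgr5+ cells and 37 were not called. These are 2.04% and 22.4% of the tested genes of the lists, beside 7.18% and 26.9% of all tested genes, so calls were no more frequent in the lists than in the whole table. The counts of single lists below are to be read against the same shares. Their median log2 difference was −0.34, beside −0.47 for all tested genes. Of the Neuralized family, which includes other ubiquitin ligases of Notch ligands, 4 were tested and 2 were called higher in Lgr5+ cells by limma. By edgeR 3 of the 4 were called, Neurl1a and Neurl4 among them as higher in Lgr5+ cells. The other call was of a gene not called by limma, and its direction is not given here. Neurl3, the most abundant of the family, was at 122 and 122 against 114 and 82.1 RPM. Limma did not call it (log2 difference 0.33, adjusted p = 0.307). Neurl4 was at 28.1 and 30.3 against 75.7 and 79.4 RPM (log2 difference −1.38, limma adjusted p = 0.00386). Neurl1a had 19.4 and 9.55 RPM in Lgr5+ cells and was listed at 0 in each Reg4+ DCS library.

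Of 13 tested genes of clathrin-dependent uptake, the epsins, dynamin 2, clathrin and the AP-2 adaptor among them, 0 were called by limma, with a median of −0.19 and 1 gene, Cltb, at an unadjusted p under 0.05. By edgeR 2 were called higher in Reg4+ DCS cells, Cltb and Rab11a. Of 9 non-canonical ligands 4 were found and 1, Nov, was tested. Nov is a secreted matrix protein also called Ccn3 that has been reported to bind Notch1. Nov was at 368 and 453 RPM in Reg4+ DCS and at 14.0 and 13.3 RPM in Lgr5+ cells, 30.0-fold apart (log2 difference 4.80, SE 0.23, limma adjusted p = 0.000115). It was the 1 gene of these lists called higher in Reg4+ DCS cells. Dlk1, below the filter and not tested, was at 15.5 and 4.58 RPM in Reg4+ DCS and at 1.92 and 1.38 RPM in Lgr5+ cells. Dner and Egfl7, also not tested, were listed at 0 in each Reg4+ DCS library and above 0 in each Lgr5+ library.

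Of the 4 receptors, 3 were tested and 2, Notch1 and Notch2, were called higher in Lgr5+ cells; both passed the filter through the Lgr5+ libraries alone, as did Neurl1a and Dtx4. Notch1 was at 1.89 and 4.04 RPM in Reg4+ DCS cells and at 93.2 and 90.4 RPM in Lgr5+ cells (log2 difference −4.60, limma adjusted p = 0.000174). Notch2 was at 0.272 and 0.333 against 7.11 and 10.6 RPM (−2.89, adjusted p = 0.00109). Notch3 was listed at 0 in each Reg4+ DCS library, stood at 1.54 and 1.63 RPM in Lgr5+ cells and was not tested. Notch4, best known from endothelium, was at 13.1 and 18.7 against 11.5 and 7.67 RPM and was not called (0.67, adjusted p = 0.154), but with median-of-ratios scaling it was called higher in Reg4+ DCS cells (0.0205), as it was by edgeR (0.0316).

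Of the genes of receptor cleavage, 0 of 8 tested were called by limma, and of those of receptor glycosylation 0 of 4, with 0 genes of either list at an unadjusted p under 0.05. By edgeR 1 of the 8 and 0 of the 4 were called. Of 6 tested genes of the nuclear complex, 2 were called higher in Lgr5+ cells by limma, among them Spen (log2 difference −1.44), a co-repressor of RBPJ. Of 3 tested genes in the list of Notch targets, 2 were called higher in Lgr5+ cells and Hes6 was not called (log2 difference −0.31). Hes5, Hes7 and Hey1 lay below the filter and were not tested. Hes1, the repressor of Atoh1, was at 128 and 78.9 against 256 and 216 RPM (−1.22, adjusted p = 0.0130), and Nrarp, a feedback inhibitor of Notch, at 10.8 and 14.7 against 49.9 and 41.7 RPM (−1.78, adjusted p = 0.00313). Of 7 tested signal limiters, Dtx4 (−4.19), a Deltex ligase, Numb (−0.89), an inhibitor of Notch, and Dtx3l (−0.76) were called higher in Lgr5+ cells. With median-of-ratios scaling the calls of Spen, Hes1, Numb and Dtx3l were among those lost. By edgeR 0 of the 6 genes of the nuclear complex were called. Of the 3 targets edgeR called 1, Nrarp, and of the 7 limiters 1, Dtx4. Spen, Hes1, Numb and Dtx3l were not called by edgeR (adjusted p = 0.0642, 0.346, 0.336 and 0.443).

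**Figure D4:**
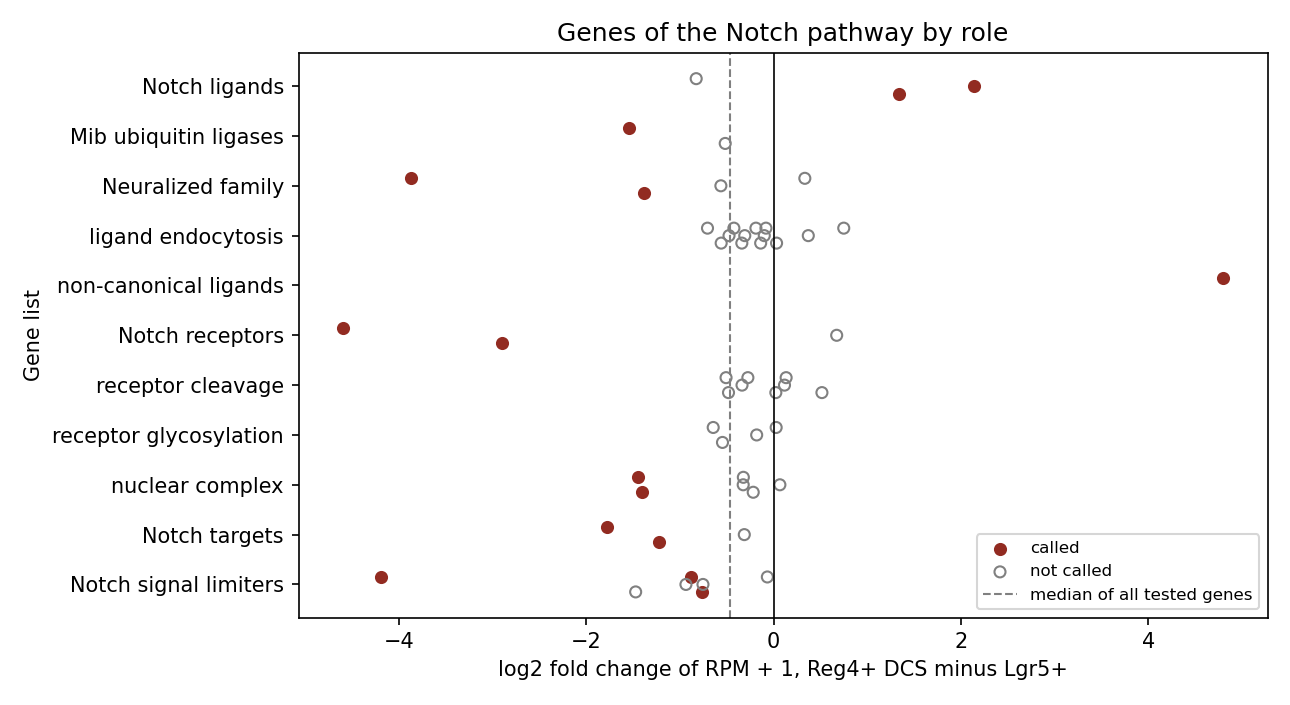
Log2 difference of RPM + 1, Reg4+ DCS minus Lgr5+, for every tested gene of 11 lists, 1 row per list and 1 circle per gene, filled where limma's adjusted p was under 0.05; the dashed line is the median of all tested genes. Dll4, Dll1 and, far to the right, Nov are the filled circles above 0, and the receptors Notch1 and Notch2 lie at −4.60 and −2.89.

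Markers of other cells were examined because Dll4, Jag1 and Jag2 are also made by endothelium and Dll1 by endocrine precursors. Of 11 endothelial markers 6 were found. Pecam1, Tek, Eng and Egfl7, the last also in the list of non-canonical ligands, were at 0 in each Reg4+ DCS library. They reached at most 4.53 RPM in Lgr5+ libraries. Vwf, at 2.49 and 5.32 RPM, and Esam, at 2.49 and 2.75 RPM, were present in both Reg4+ DCS libraries. The list summed to 4.98 and 8.07 RPM there and to 17.5 and 18.2 RPM in Lgr5+ libraries. The enteroendocrine list (8 of 10 found) summed to 17.4 and 25.7 RPM in Reg4+ DCS and 75.1 and 32.9 RPM in Lgr5+ libraries. Of its members, Neurod1, Isl1 and Scg5 were listed without signal in either Reg4+ DCS library, while Pyy, Chgb, Gcg, Chga and Insm1 were present in each. Pyy reached 7.94 and 13.97 RPM there, Chgb 6.88 and 3.01 RPM and Gcg 1.06 and 6.55 RPM. Values of Chgb and Gcg overlapped between the groups, and those of Pyy, Chga and Insm1 were higher in Lgr5+ libraries.

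Lgr5+ replicate 1 stood above replicate 2 in several marker lists. Tuft cell genes summed to 1027 and 291 RPM in Lgr5+ replicates 1 and 2 and to 2.30 and 1.98 RPM in Reg4+ DCS cells, with 5 of 8 at 0 in both of the latter. Genes of colonocytes, the absorptive cells, summed to 876 and 171 against 105 and 47.5 RPM. Leukocyte genes (8 of 12 found) summed to 47.3 and 13.5 against 0.536 and 0.537 RPM, with 6 of the 8 at 0 in both Reg4+ DCS libraries. Ptprc alone gave 40.1 and 9.55 RPM of the Lgr5+ sums, and the other 7 genes gave 7.11 and 3.90 RPM. Goblet-type markers, which the secretory cells carry, summed to 6407 and 2478 RPM in Lgr5+ replicates 1 and 2. Among the members, Mib1 (13.6 and 5.15 RPM), Jag2 (3.46 and 1.38 RPM), Dll1 (21.9 and 14.2 RPM) and Dll4 (10.4 and 6.79 RPM) were also higher in Lgr5+ replicate 1, while Jag1 and Mib2 were not. The part of endothelial, enteroendocrine or any of these other cells in the values of the members was not tested.

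Genes with the most similar profile over the 4 libraries were sought among 6375 tested genes with a mean of at least 20 RPM, by the Euclidean distance of log2(RPM + 1) after each gene's mean was subtracted. Nearest to Dll4 were Rassf6, Camk2n1, Fbxo32, Il13ra1 and Mia3, at distances from 0.124 to 0.240. Nearest to Dll1 were Spsb2, Plk3, Gm15401, Zfand2a and Tppp, from 0.173 to 0.248. For Mib1 they were Rabgap1l, Ugdh, Smarcc1, Mll1 and Pi4k2b, from 0.213 to 0.319. Within a distance of 0.5 lay 43 genes for Dll4, 42 for Dll1 and 24 for Mib1, but 1885 for Jag1 (the nearest being Usp3, Gle1, Psmd14, Abhd11 and Rpl6) and 2234 for Mib2 (Sugt1, Usp47, Rpl5, Pofut1 and Rpl24). The profiles of Jag1 and Mib2 were thus common ones. With 4 libraries such likeness is a description.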

How the data were processed

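The table that the authors deposited gives RPM (each library scaled to a sum of 1000000) for 2 Reg4+ DCS and 2 Lgr5+ libraries. Alignment was with BWA 0.6.2-r126 to mm10, per the submitters' processing notes; the counting step, strand use, molecular identifiers and filters are not stated there or in the labels. Values in the Lgr5+ columns were 100% whole multiples of 1 read within 0.01 reads. Reg4+ DCS columns were decoded as means of 2 parts (99.9% and 98.6% of entries uniquely, after a test on simulated data), and edgeR 4.0.16, run on the recovered reads, called 2755 genes. Genes with at least 5 RPM in at least 2 libraries were tested with limma 3.58.1 (R 4.3.3, eBayes with trend) on log2(RPM + 1), with group as the only term and Benjamini-Hochberg adjustment over 10183 genes. That scale understates changes of low genes. Fits were tested on simulated data in which few genes changed, none of them at low level, and with no general shift between groups. That test thus did not cover low genes or a shift like the one seen here. The replicate number was not used as a pairing. The p-values measure the spread between libraries, which eBayes estimates for each gene partly from the other tested genes. The members and lists were chosen with earlier results of these data known. Named genes were the 7 members, the 4 receptors, both sort genes, the called genes of each pathway list with a mean of at least 5 RPM (at most 3 per direction), and the 5 nearest profiles per tested member. Atoh1, Cltb, Rab11a, Neurl3, Dlk1, Dner, Hes5, Hes6, Hes7, Hey1, Gm14207, the other neighbouring genes and the single markers of other cells were named after their values were seen. Gene positions are from GENCODE M21.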

Additional observations from a re-analysis of the deposited data

How the results depend on the processing

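Dll1, Dll4, Jag1 and Mib2 had the sign reported in 12 of 12 alternatives, but Mib2 was at −0.02 (limma adjusted p = 0.949) with median-of-ratios scaling, which gives no direction. Mib1 had it in the 10 alternatives in which it was tested, and it missed the filter without either Lgr5+ library. Dll4 kept its call in 12 of 12 alternatives, with log2 differences from 1.76 to 2.77. Dll1 ranged from 0.90 to 1.93 and Mib1 from −1.70 to −0.92. The count of members called, 3 as reported, was 1 with no filter on low values and ranged from 1 to 2 when 1 library was left out. The count over all genes, 3475 as reported, ranged from 1419 to 2637 when 1 library was left out (1419 without Reg4+ DCS replicate 1, 2132 without Lgr5+ replicate 2). With median-of-ratios scaling it was 2888, of which 1591 were higher in Reg4+ DCS cells and 1297 lower, beside 731 and 2744 as reported. With the replicate number as a block 3 members and 4444 genes were called. The replicates share a number only, and the correlation of their deviations over genes was 0.21. Depth limits Dll3 and Jag2, which had at most 2 and 18 reads in any library.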
